A study of Rattus norvegicus with 10 samples.

Results

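The 10 genes described here encode parts of the pathways that load peptides on molecules of the major histocompatibility complex (MHC): the class I light chain B2m, the peptide loading proteins Tap1, Tap2 and Tapbp, the inducible proteasome subunits Psmb8 and Psmb9, and the class II proteins Cd74, RT1-Da, RT1-Ba and RT1-Bb. They were chosen by symbol, with earlier results of these data known. Each was the row of the count matrix whose RefSeq transcript identifier maps to that rat symbol. Where a symbol has several rows, the rule takes the row with the highest mean count. Each symbol had 1 row, so the members are 10 of 32041 rows. All 10 passed the filter on low counts and were among the 22447 rows tested. The RNA came from a piece of left hippocampus holding the CA3 field and the dentate gyrus of male Sprague-Dawley rats, an outbred strain, weighing 290 to 320 g. The age of the animals was not given in the labels. All 10 rats carried a bipolar electrode in the left lateral amygdala. The 5 sham rats (rats 1 to 5) received no current, and the 5 stimulated rats (rats 6 to 10) received trains of 400 µA pulses at 60 Hz for 30 min, longer where needed, to start status epilepticus, a seizure that does not stop on its own. It was ended with diazepam at 20 mg/kg. The labels do not say that sham rats received the drug, so stimulation, seizures and drug cannot be told apart. Tissue was taken 3 months later, after 2 weeks of video EEG in the stimulated rats. The question put to these genes was whether their transcripts differed in tissue from rats with epilepsy.

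MHC class I molecules stand on most nucleated cells and consist of a heavy chain and the light chain β2-microglobulin. Their peptides are cut in the cytosol by the proteasome, which can exchange its catalytic subunits for inducible ones to form the immunoproteasome, and are pumped into the endoplasmic reticulum by the TAP transporter, where tapasin helps to load them. MHC class II molecules are pairs of an alpha and a beta chain that travel with the invariant chain Cd74 and receive peptides in endosomes after proteases have cut Cd74 away. In the healthy brain class II molecules are sparse and are known mainly from microglia, from macrophages at vessels and meninges, and from invading leukocytes. Interferon gamma is the classical inducer of both pathways. In the rat the complex is called RT1.

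Aligned counts per rat lay between 13552309 and 24086059 in sham and between 15586870 and 21642792 in stimulated rats. The share of reads left unaligned was 32.8 to 37.1% in sham rats and 35.6, 32.0, 41.4, 42.9 and 45.1% in rats 6 to 10. It thus was above the sham range in rats 8, 9 and 10, and its part in the results was not tested. Levels are given as CPM, read counts divided by the scaled size of their library, and are compared within a gene only, because the transcript lengths needed to compare genes were not used here. The member with the fewest counts was RT1-Bb, with 15 to 81 per rat, and that with the most was B2m, with 2978 to 7195. Counts of 15 carry a large counting error, so single values of RT1-Bb are the least precise. Marker genes of the labelled tissue were looked up. All 7 neuronal markers, 4 matched markers of dentate granule cells and 5 of CA3 pyramidal cells were detected above the filter. All 7 oligodendrocyte markers and all 6 of choroid plexus passed it too, so passing it cannot identify the region. Because whole tissue was sequenced, fewer cells of a type and less RNA per cell cannot be told apart. The RT1 genes form a family of close copies (44 symbols and 46 rows here), and reads of 36 bases can fit several of them. How the authors counted such reads was not stated in the sources used here, so all values of single RT1 genes are uncertain.

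Stretches of promoter sequence are shown for 7 members, because the DNA letters that class I and class II genes are known to use for their control can be read in them. The window searched in each gene ran from 250 bases before to 50 bases after the transcription start, in RefSeq sequence of the GRCr8 assembly, a different build from the RN4 build of the authors. All 10 members had a window. Capitals mark matches to 3 motifs: GAAANNGAA, a core of the interferon-stimulated response element, GGANTTTCC, a form of the kappa B site of NF-κB, and CTGATTGG, the Y box bound by the factor NF-Y. B2m, Tap1 and Psmb8 stand for the class I pathway, and Psmb9, RT1-Da, RT1-Ba and RT1-Bb hold a Y box. All are written 5′ to 3′ on the strand of the gene.
B2m, chr3:129549140-129549241, plus strand: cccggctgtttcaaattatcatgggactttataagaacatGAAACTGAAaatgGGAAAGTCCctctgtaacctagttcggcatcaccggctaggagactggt
Tap1, chr20:4668549-4668703, minus strand: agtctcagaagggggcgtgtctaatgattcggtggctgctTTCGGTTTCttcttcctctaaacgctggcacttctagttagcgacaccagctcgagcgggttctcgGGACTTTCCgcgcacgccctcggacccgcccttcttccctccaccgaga
Psmb8, chr20:4656986-4657074, minus strand: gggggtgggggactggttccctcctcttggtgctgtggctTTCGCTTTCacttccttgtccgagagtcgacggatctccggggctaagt
Psmb9, chr20:4668979-4669049, plus strand: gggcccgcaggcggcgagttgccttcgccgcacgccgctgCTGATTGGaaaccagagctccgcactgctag
RT1-Da, chr20:4515323-4515410, plus strand: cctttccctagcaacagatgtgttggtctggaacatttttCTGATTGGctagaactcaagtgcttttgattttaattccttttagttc
RT1-Ba, chr20:4576971-4577058, plus strand: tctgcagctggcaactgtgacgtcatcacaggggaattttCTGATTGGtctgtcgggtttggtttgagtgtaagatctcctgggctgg
RT1-Bb, chr20:4604135-4604222, minus strand: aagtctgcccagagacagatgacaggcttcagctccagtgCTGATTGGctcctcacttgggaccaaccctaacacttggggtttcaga

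On both strands, the interferon-stimulated core was read in 5 of the 10 members (B2m, Tap1, Tap2, Tapbp and Psmb8), against 9.71% of 33469 promoter windows of the same length. The Y box was read in 4 members, against 3.5% of windows, and the kappa B form in 3 (B2m, Tap1 and Tapbp), against 1.28%. In B2m the interferon core began at position -150 from the start and the kappa B form at -137. In the 3 class II chains the Y box began between -64 and -46, and in Psmb9 its letters began at position 20, after the start. A core of the X box, AGNNACNGA, was read in 4 members (Tap1, RT1-Da, RT1-Ba and RT1-Bb) but also in 18.1% of windows. In RT1-Da and RT1-Bb its matches lay before the Y box. In RT1-Ba the match began at position 35, after the start and after the Y box, and in Tap1 the matches were on the other strand. The gamma-activated letters TTCNNNGAA were read in 1 member (Psmb8), against 8.87% of windows. In Tap1 a match of the interferon core overlapped one of the X box core, and in Tapbp 2 matches of the interferon core overlapped each other. Tap1 and Psmb9 lie side by side and are read in opposite directions, and their windows share 44 bases. Of the 10 members 8 lie on chromosome 20, in the RT1 complex, B2m lies on chromosome 3 and Cd74 on chromosome 18. Cd74 held none of the 5 motifs in its window. These matches describe the letters of the reference sequence and were not tested against binding or expression.

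Across the members the stimulated rats had higher mean levels for 9 genes and a lower mean for Tapbp, but no member passed the test after adjustment. The quasi-likelihood test of edgeR with Benjamini-Hochberg adjustment over all rows found 0 of 10 members at an adjusted p under 0.05, and 0 of all 22447 rows (0%). The lowest adjusted p of any row was 0.376. At an unadjusted p under 0.05 there were 3 members, B2m, Psmb9 and Cd74, all higher in stimulated rats, beside 2214 of all rows (9.86%), of which 1505 (6.7%) were higher and 709 (3.16%) lower. At the study's cut-off, an unadjusted p under 0.001, there were 0 members and 39 rows (0.174%). The study applied this cut-off in its own edgeR analysis, which by its methods held fewer stimulated rats. It listed more genes, Jak2 and Mx2 among them, so its counts and these are not directly comparable. The ranges of the groups overlapped for all 10 members, and were separate in 290 of all rows (1.29%). The median log2 fold change, stimulated over sham, was 0.40 over the 10 members and 0.01 over all tested rows. Other tests gave other counts over all rows, with 33 at an adjusted p under 0.05 by DESeq2, 119 by the likelihood ratio test of edgeR, 89 by its exact test and 0 by limma-voom, and 0 members in each.

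**Figure D1:**
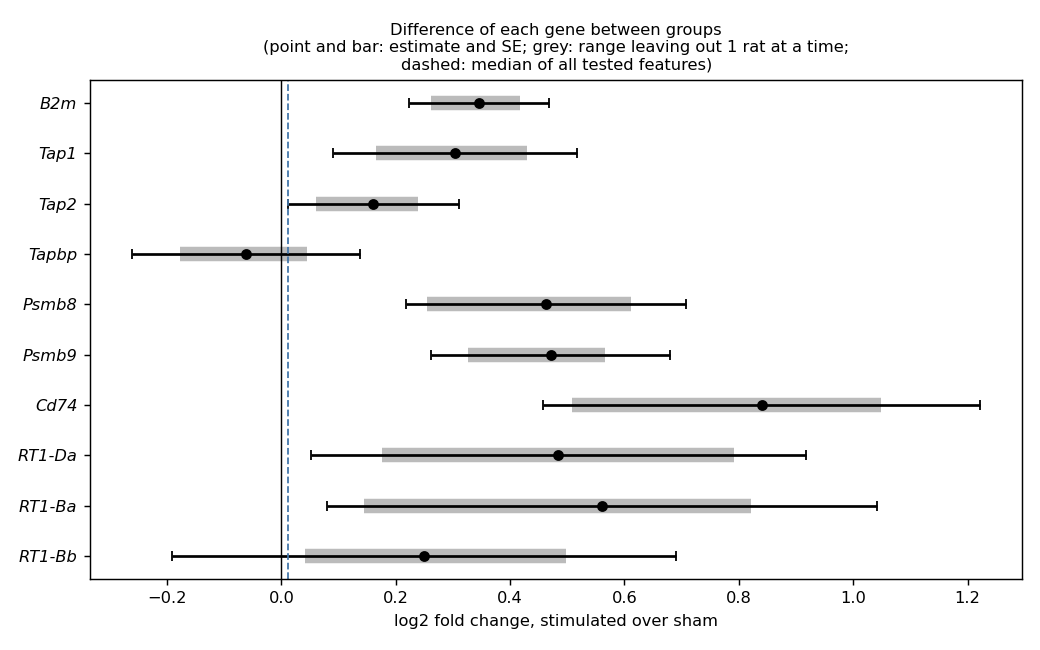
Log2 fold change of each member, stimulated over sham, with its standard error (point and black bar, 5 rats per group), the range of estimates when 1 rat at a time was left out (grey) and the median of all tested rows (dashed line, 0.01). Cd74 has the highest estimate, 0.84, and the grey range reaches both sides of 0 for Tapbp alone.

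The spread between stimulated rats exceeded that between sham rats for all 10 members, with SDs of CPM from 1.06 times (Tapbp) to 4.55 times (Psmb8) those of sham. This was frequent in the whole table too: 69.3% of all tested rows had the larger SD in stimulated rats, with a median ratio of 1.37.

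B2m (NM_012512), the light chain that every class I heavy chain needs to fold, had the lowest p of the members. In the sham rats 1 to 5 it stood at 241, 227, 249, 207 and 244 CPM. In the stimulated rats 6 to 10 it stood at 224, 334, 249, 313 and 363 CPM. Rats 7, 9 and 10 lay well above all sham rats, rat 8 equalled the highest sham rat to within 1 CPM, and rat 6 was inside the sham range. The means were 234 ± 17.0 in sham and 297 ± 58.6 CPM after stimulation (SD, n = 5 each), a log2 fold change of 0.35 ± 0.122 (SE), or 1.27-fold, with an unadjusted p of 0.0138 and an adjusted p of 0.414 in edgeR's quasi-likelihood test. When any 1 rat was left out the log2 fold change stayed between 0.26 and 0.42, and B2m was the member whose unadjusted p remained under 0.05 in each of these fits and in each of the other settings tried.

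The heavy chains that pair with B2m were read from a list of 36 class I genes, B2m among them. Of these, 31 matched a row and 28 were tested. Without adjustment 5 were higher in stimulated rats (B2m, RT1-A2, RT1-CE2, RT1-CE5 and RT1-CE12) and 0 lower, and 0 passed after adjustment. The median log2 fold change of the list was 0.29, with or without B2m. It fell to 0.12 when rat 10 was left out. RT1-A2, a classical class I heavy chain, measured 15.3, 14.3, 15.6, 12.8 and 16.0 CPM in sham and 12.4, 24.98, 19.4, 22.0 and 22.4 CPM in stimulated rats. Rats 7 to 10 were above all sham rats and rat 6 below all of them. Its log2 fold change was 0.45 ± 0.164 (adjusted p = 0.418, edgeR). RT1-CE5, another gene of the class I region, averaged 7.32 ± 0.271 in sham and 9.69 ± 2.52 CPM after stimulation (SD, n = 5 each), again with rats 7 to 10 above and rat 6 below the sham range. RT1-CE2 averaged 2.73 ± 0.2 and 4.01 ± 1.17 CPM, and RT1-CE12 2.10 ± 0.465 and 3.02 ± 0.694 CPM, in sham and stimulated rats. RT1-S3, a nonclassical heavy chain and after B2m the gene of the list with the highest CPM, had a log2 fold change of 0.05 ± 0.23, with rat 9 at 64.3 CPM and the other 9 rats between 26.2 and 40.1 CPM.

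Of the 3 members that carry peptides to class I molecules and load them, none had an unadjusted p under 0.05. Tap1 (NM_032055), a chain of the TAP peptide transporter, measured 8.14, 6.03, 8.49, 6.08 and 5.45 CPM in sham and 5.07, 9.57, 7.09, 8.93 and 11.5 CPM in stimulated rats. Rats 7, 9 and 10 were above all sham rats and rat 6 below all of them. Its log2 fold change was 0.30 ± 0.213 (unadjusted p = 0.177, adjusted p = 0.657, edgeR). It was 0.43 without rat 6, with an unadjusted p of 0.0379, and 0.17 without rat 10, with an unadjusted p of 0.444.

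Tap2 (NM_032056), the partner chain of the transporter, measured 12.8, 8.63, 10.4, 9.63 and 10.5 CPM in sham and 9.68, 10.3, 14.4, 10.8 and 13.2 CPM in stimulated rats. Rats 8 and 10 were above the sham range, and rats 7 and 9, which were high for Tap1, were not. The log2 fold change was 0.16 ± 0.15 (adjusted p = 0.751, edgeR), 0.06 without rat 8 and 0.10 without sham rat 2. Tapbp (NM_033098), tapasin, which holds empty class I molecules at the transporter, measured 14.0, 20.0, 10.5, 17.7 and 14.6 CPM in sham and 13.8, 12.2, 18.8, 10.2 and 18.6 CPM in stimulated rats. The groups lay on top of each other, with a log2 fold change of -0.06 ± 0.199 (adjusted p = 0.942, edgeR), and the sign turned when sham rat 2 or stimulated rat 9 was left out.

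The list of class I peptide supply and loading held 9 genes, of which 8 matched and were tested. Without adjustment 1 was higher, Tapbpl, the tapasin-related peptide editor, and 0 were lower. Tapbpl was 7.11 to 8.65 CPM in sham and 8.88 to 11.2 CPM in stimulated rats, without overlap, a log2 fold change of 0.30 ± 0.129 (unadjusted p = 0.0386, adjusted p = 0.473, edgeR). The genes of the list with the highest CPM, the chaperones Calr and Canx, both had log2 fold changes of 0.05, with SEs of 0.0764 and 0.0855. The median of the list was 0.13, or 0.08 without sham rat 2.

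**Figure D2:**
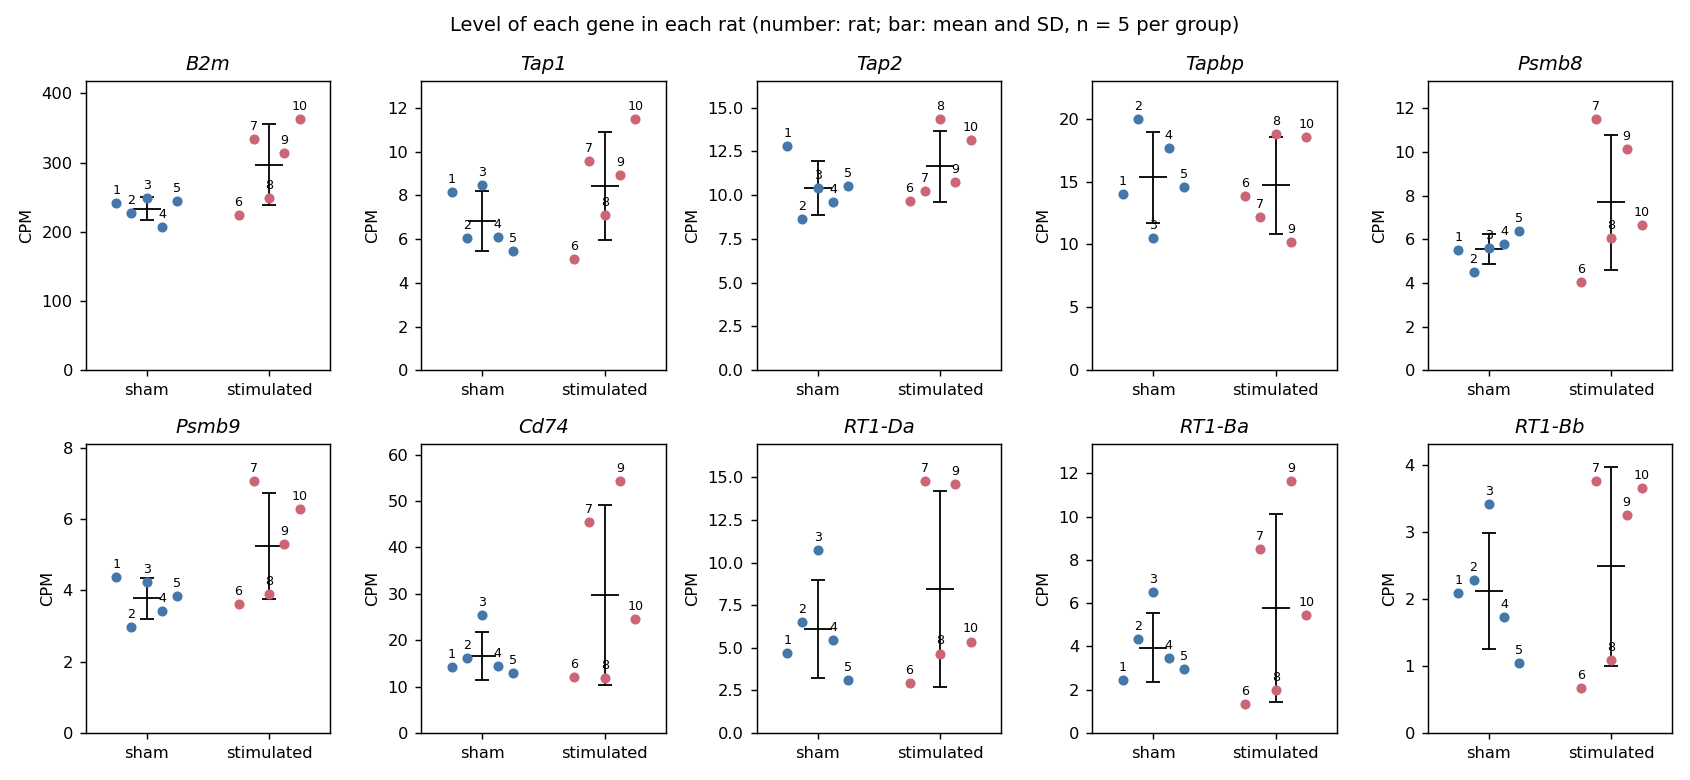
CPM of the 10 members in each of the 10 rats (points, numbered by rat), with mean and SD per group (bars, n = 5), each panel on its own axis from 0. Stimulated rats 7 and 9 top the panels of Cd74, RT1-Da and RT1-Ba, while rat 6 lies low in most panels.

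The inducible proteasome subunits among the members, Psmb8 and Psmb9, had higher means in stimulated rats and were highest in rat 7. Psmb8 (NM_080767), which takes the place of the constitutive subunit Psmb5, measured 5.53, 4.50, 5.61, 5.79 and 6.37 CPM in sham and 4.03, 11.5, 6.07, 10.2 and 6.66 CPM in stimulated rats. Rats 7 and 9 stood far above the sham range, rat 10 just above it and rat 6 below it. The log2 fold change was 0.46 ± 0.245 (unadjusted p = 0.0798, adjusted p = 0.551, edgeR). It was 0.26 without rat 7 and 0.61, with an unadjusted p of 0.0104, without rat 6.

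Psmb9 (NM_012708), which replaces Psmb6, measured 4.36, 2.98, 4.25, 3.43 and 3.86 CPM in sham and 3.62, 7.06, 3.90, 5.30 and 6.30 CPM in stimulated rats. Rats 7, 9 and 10 exceeded all sham rats, and rats 6 and 8 lay among them. The means were 3.77 ± 0.576 and 5.23 ± 1.49 CPM (SD, n = 5 each), a log2 fold change of 0.47 ± 0.209, or 1.39-fold (unadjusted p = 0.0415, adjusted p = 0.482, edgeR). The unadjusted p rose above 0.05 in 6 of the 10 fits that left out a rat.

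A ratio of subunits within a rat does not depend on how libraries are scaled. The log2 ratio of Psmb8 to Psmb5 counts was -5.05 ± 0.272 in sham and -4.56 ± 0.563 after stimulation (SD, n = 5 each), a difference of 0.49 (exact permutation test over all assignments of the rats to groups, two-sided, p = 0.151, 0.226 after adjustment over 3 ratios). That of Psmb9 to Psmb6 was -3.74 ± 0.299 and -3.33 ± 0.264, a difference of 0.41 (exact permutation test, p = 0.0635, adjusted 0.19), with 3 of 5 stimulated rats above all sham rats. The third inducible subunit, Psmb10, is no member. Its log2 ratio to Psmb7 was -2.80 ± 0.232 in sham and -2.99 ± 0.307 in stimulated rats, a difference of -0.19 in the other direction (exact permutation test, p = 0.294). The smallest p these tests can give is 0.00794. None of the 3 differences passed, and whether the 3 subunits differed from each other was not tested.

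**Figure D3:**
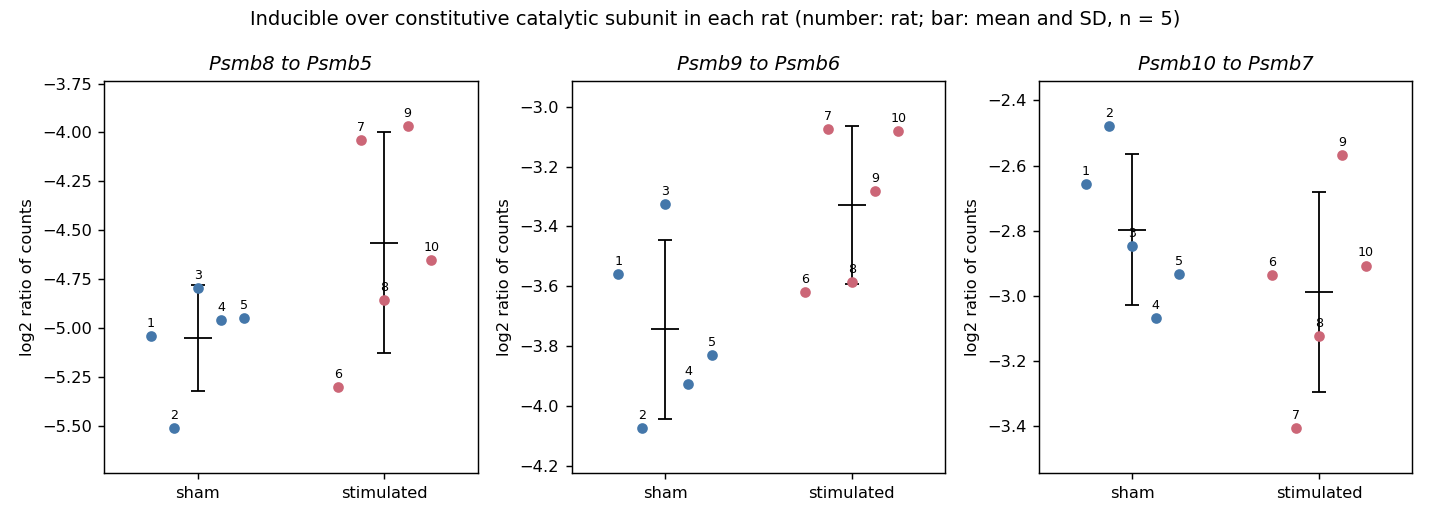
Log2 ratio of counts of each inducible catalytic subunit to the constitutive subunit it replaces, in each rat (points, numbered by rat), with mean and SD (bars, n = 5). Rats 7 and 9 have the highest Psmb8 to Psmb5 ratios, at -4.04 and -3.97, and rats 7 and 10 the highest Psmb9 to Psmb6 ratios, at -3.08 for both.

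Of the list of the immunoproteasome and its activator all 6 genes were tested. Without adjustment 1 was higher (Psmb9) and 0 lower, and the median log2 fold change was 0.13, or -0.02 without Psmb8 and Psmb9. Leaving out rat 7 brought the list to 0.06, sham rat 2 to 0.08 and sham rat 3 to 0.07. The genes with the highest CPM were Psme1, a chain of the interferon-inducible 11S activator, at -0.13 ± 0.0899, and Pomp, the assembly factor of proteasomes, at 0.19 ± 0.14. Of 5 constitutive counterparts Psme4, the activator PA200, was the gene with an unadjusted p under 0.05. It averaged 36.2 ± 5.79 in sham and 51.7 ± 14.2 CPM after stimulation (SD, n = 5 each), a log2 fold change of 0.51 ± 0.17 (adjusted p = 0.407, edgeR), and was highest in rat 7 at 74.9 CPM. The catalytic subunits Psmb5 and Psmb7, with the highest CPM of that list, had log2 fold changes of -0.11 ± 0.0892 and 0.11 ± 0.102, and the median of the 5 was 0.09, or 0.01 without rat 7, 0.04 without rat 9 and 0.05 without sham rat 3.

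The 4 class II members had the largest SEs of the 10, from 0.382 to 0.481, the next being 0.245 for Psmb8. Cd74 (NM_013069), the invariant chain that guides class II molecules to endosomes, measured 14.2, 16.1, 25.5, 14.4 and 12.8 CPM in sham and 12.1, 45.5, 11.9, 54.2 and 24.6 CPM in stimulated rats. Rats 7 and 9 were far above all sham rats, rat 10 was just under the highest sham rat, and rats 6 and 8 were below all sham rats. The means were 16.6 ± 5.12 and 29.7 ± 19.4 CPM (SD, n = 5 each), a log2 fold change of 0.84 ± 0.382, or 1.79-fold (unadjusted p = 0.0455, adjusted p = 0.491, edgeR). It was 0.51 without rat 9, 0.62 without rat 7, 1.03 without rat 6 and 1.05 without sham rat 3. The unadjusted p was above 0.05 in 6 of the 10 fits that left out a rat, and also with DESeq2 (0.0736), robust empirical Bayes (0.0984), upper quartile factors (0.0502) and limma-voom (0.138). The sham rat 3, at 25.5 CPM, was itself well above the other 4 sham rats.

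RT1-Da (NM_001008847), the alpha chain of the RT1-D molecule, measured 4.71, 6.49, 10.7, 5.46 and 3.10 CPM in sham and 2.94, 14.8, 4.66, 14.6 and 5.37 CPM in stimulated rats. Rats 7 and 9 were above the sham range, rat 6 below it and rats 8 and 10 inside. The log2 fold change was 0.48 ± 0.433 (unadjusted p = 0.283, adjusted p = 0.737, edgeR). It was 0.18 without rat 7, 0.20 without rat 9, 0.30 without sham rat 5 and 0.79 without sham rat 3.

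RT1-Ba (NM_001008831), the alpha chain of the RT1-B molecule, measured 2.44, 4.35, 6.53, 3.47 and 2.93 CPM in sham and 1.36, 8.50, 1.98, 11.6 and 5.47 CPM in stimulated rats. Rats 7 and 9 were above all sham rats and rats 6 and 8 below all of them, so the stimulated rats fell on both sides of the sham range. The log2 fold change was 0.56 ± 0.481 (adjusted p = 0.724, edgeR), 0.14 without rat 9 and 0.37 without rat 7.

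RT1-Bb (NM_001004084), the beta chain of RT1-B, measured 2.09, 2.29, 3.43, 1.74 and 1.05 CPM in sham and 0.679, 3.76, 1.09, 3.26 and 3.66 CPM in stimulated rats. Rats 7 and 10 were just above the highest sham rat, rat 9 just below it, and rat 6 was the lowest of all. The log2 fold change was 0.25 ± 0.441 (adjusted p = 0.89, edgeR), and between 0.04 (without rat 7) and 0.50 (without sham rat 3) when 1 rat was left out.

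Summed over the 4 class II members, the sham rats held 23.4, 29.2, 46.2, 25.1 and 19.9 CPM and the stimulated rats 17.1, 72.5, 19.7, 83.8 and 39.1 CPM. The stimulated group thus spanned a wider range than the sham group and enclosed it at both ends. Sham rat 3 was the highest sham rat for all 4 genes. Rat 6 was the lowest of all 10 rats for 5 of the 10 members, and rat 7 the highest for 4.

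**Figure D4:**
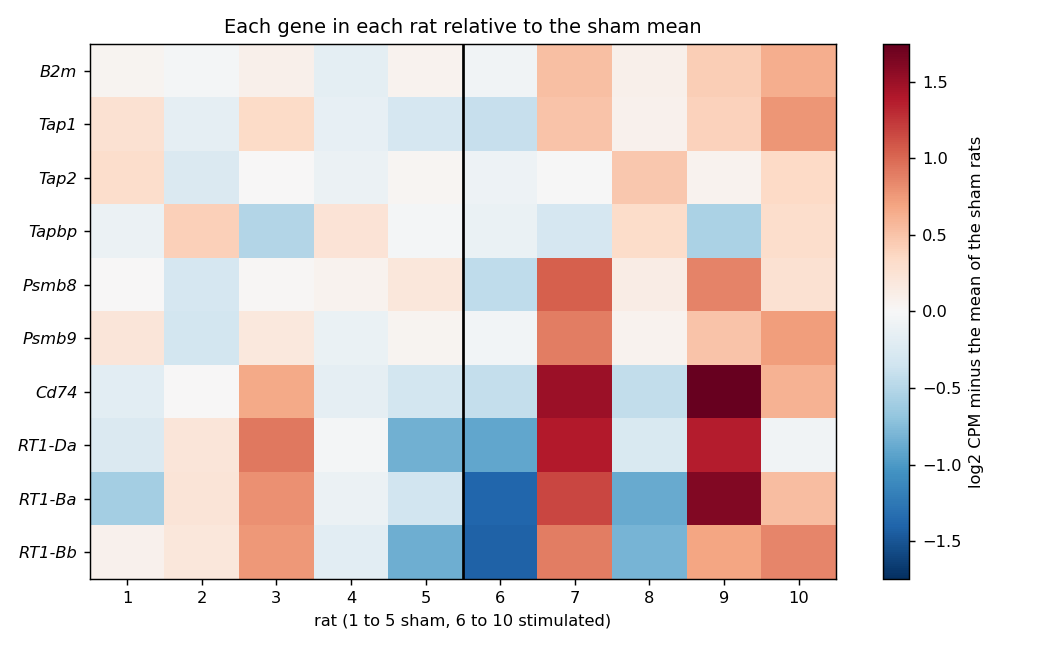
Log2 CPM of each member (rows) in each rat (columns, 1 to 5 sham and 6 to 10 stimulated), as the difference from the mean of the sham rats. The rows of Cd74, RT1-Da and RT1-Ba are darkest red in rats 7 and 9, that of RT1-Bb in rats 7 and 10, and all 4 are blue in rats 6 and 8, while the rows of Tap2 and Tapbp do not follow them.

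Of the list of class II chains, chaperones and proteases 19 genes were named, 18 matched and 15 were tested. Without adjustment 4 were higher (Cd74, RT1-Db1, Ctss and Ifi30) and 0 lower. The median log2 fold change was 0.26, or 0.22 without the members, and it was 0.44 when rat 6 and 0.14 when rat 7 was left out. RT1-Db1, the beta chain that pairs with RT1-Da, measured 1.51, 1.98, 3.48, 2.40 and 3.77 CPM in sham and 3.26, 7.38, 2.94, 8.52 and 2.17 CPM in stimulated rats, highest in rats 7 and 9 as its partner was, with a log2 fold change of 0.87 ± 0.379 (adjusted p = 0.471, edgeR). Ctss, cathepsin S, the protease that makes the last cuts in Cd74, measured 286, 217, 233, 232 and 237 CPM in sham and 247, 342, 321, 359 and 294 CPM in stimulated rats. Rats 7 to 10 were above all sham rats. Its log2 fold change was 0.38 ± 0.107 (unadjusted p = 0.00354, adjusted p = 0.38, edgeR). Ifi30, a thiol reductase that opens proteins in endosomes, averaged 12.8 ± 2.59 in sham and 17.2 ± 4.11 CPM after stimulation (SD, n = 5 each). Ctsb, cathepsin B, with the highest CPM of the list, had a log2 fold change of 0.08 ± 0.081. The chains of the peptide exchange factor, RT1-DMa and RT1-DMb, were not called either, at -0.14 ± 0.103 and 0.12 ± 0.211. RT1-Ha was at 0 in all 10 libraries.

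How the members moved together from rat to rat is given as Pearson's r of log2 CPM over the 10 rats, a description without a test, since the points share libraries and scaling. Among the 4 class II members the 6 pairs had r from 0.80 to 0.93, with a median of 0.90. Within the 5 sham rats alone Cd74 and RT1-Ba had r = 0.91, and within the 5 stimulated rats r = 0.98. Among the 6 class I members the 15 pairs ranged from -0.47 to 0.93, with a median of 0.39. B2m and Psmb9 had r = 0.93, and B2m and Tap1 0.85. Within sham rats alone these were 0.65 and 0.45, and within stimulated rats alone 0.95 and 0.98. Tapbp was the exception in direction, at -0.62 with Cd74 and -0.25 with B2m, and Tap2 had r = -0.08 with Cd74. Between class I and class II members the median of 24 pairs was 0.62. Values over all 10 rats need not hold within each group. Psmb8 and Cd74 had r = -0.23 within sham and 0.91 within stimulated rats, whereas Tap1 and Cd74 had 0.66 and 0.68.

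The rows most like Cd74 over the 10 rats, of 9672 searched with a symbol and a mean of at least 5 CPM, were Zfp46 (r = 0.97), Tanc1, a scaffold of the postsynaptic density (0.97), Slc6a17, a vesicular amino acid transporter (0.95), and 2 transcripts of Bdnf, the brain-derived neurotrophic factor (0.95 for both). Those most like B2m were Efr3a, a membrane protein that anchors a lipid kinase (0.97), Slc7a5, an amino acid transporter (0.96), F2r, the thrombin receptor (0.95), Brap (0.95) and Smox, spermine oxidase (0.95). Within the 5 stimulated rats alone these rows had r from 0.93 to 1.00, and within the 5 sham rats from 0.06 (Brap with B2m) to 0.95. Fos, the immediate early gene, measured 5.61, 106, 5.24, 50.3 and 61.7 CPM in stimulated rats 6 to 10, and 3.26 to 5.32 CPM in sham. Its high values fell in rats 7, 9 and 10. These were the 3 highest rats for B2m, Tap1, Psmb8 and Psmb9 too, and not for the other members. In sham rats Cd74 ranged from 12.8 to 25.5 CPM. A link of Fos with these values was not tested.

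The tested factors among those that drive MHC genes showed few differences. Of 13 listed, 12 matched a row (all but Nlrc5) and 11 were tested. Their median log2 fold change was 0.09, or 0.04 without rat 7 or rat 9. At an unadjusted p under 0.05, 1 was higher and 0 lower. That gene was Nfya, a subunit of NF-Y, the factor known to bind Y boxes, whose letters are printed above for Psmb9 and the RT1 chains. It measured 4.42, 3.05, 3.65, 3.56 and 4.11 CPM in sham and 4.71, 5.99, 7.47, 7.24 and 5.31 CPM in stimulated rats, without overlap, a log2 fold change of 0.70 ± 0.176 (unadjusted p = 0.00138, adjusted p = 0.376, edgeR). Its order over the stimulated rats was not that of the class II genes, being highest in rat 8. Nfyc, another NF-Y subunit, was at 0.07 ± 0.0943, and Rfxap, of the X box factor RFX, at 0.15 ± 0.204, these being the genes of the list with the highest CPM. Ciita, the coactivator on which class II transcription depends, had 0 to 5 counts per rat and was below the filter, so a difference in it was not detectable at this depth. Irf1, a factor of the interferon response, had a log2 fold change of 0.09 ± 0.165.

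Of 36 genes of interferon signalling and response 33 matched and 31 were tested. Without adjustment 4 were higher (Ifngr1, Jak2, Gbp2 and Ifitm3) and 1 lower (Mx2), with a median log2 fold change of 0.12. Whatever their p, 21 had a log2 fold change above 0 and 10 below. The median was -0.02 without rat 10, 0.07 without rat 9 and 0.08 without sham rat 2. Jak2, a kinase of the interferon gamma receptor among others, measured 24.2, 27.2, 28.7, 23.0 and 22.3 CPM in sham and 24.9, 78.7, 28.0, 55.6 and 45.4 CPM in stimulated rats. Rats 7, 9 and 10 were again the high ones. Its log2 fold change was 0.89 ± 0.256 (unadjusted p = 0.00367, adjusted p = 0.38, edgeR). Ifngr1, the ligand-binding chain of that receptor, averaged 39.3 ± 2.65 and 48.0 ± 7.59 CPM. Gbp2, an interferon-induced GTPase, was 2.33 to 4.96 CPM in sham and 4.98 to 9.96 CPM in stimulated rats, which did not overlap (log2 fold change 0.72 ± 0.243). Ifitm3, an interferon-induced membrane protein, was led by rats 7 and 10, at 18.5 and 13.4 CPM, against 3.66 to 6.56 CPM in sham. Mx2, an interferon-induced GTPase, was lower, at 30.3 ± 5.49 in sham and 20.3 ± 5.82 CPM after stimulation (SD, n = 5 each). Its log2 fold change was -0.58 ± 0.186 (adjusted p = 0.399, edgeR). The genes with the highest CPM of the list, Jak1 and Ifi27, were at 0.19 ± 0.11 and -0.08 ± 0.118. Ifit1 and Cxcl9, response genes of interferon, were below the filter.

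**Figure D5:**
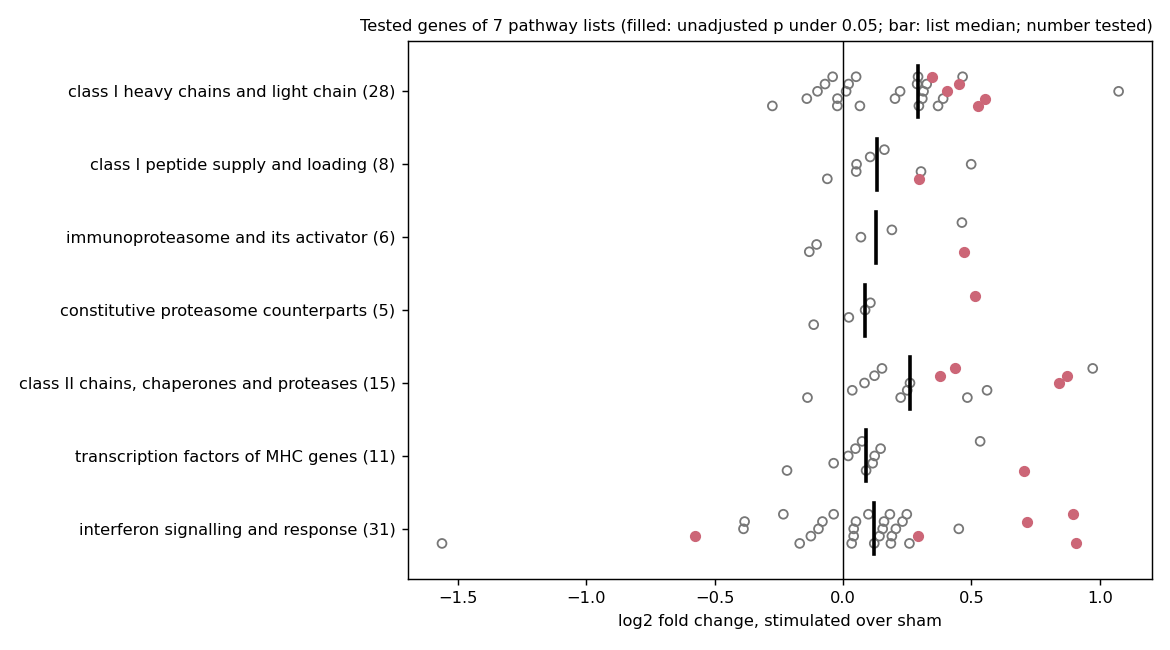
Log2 fold change, stimulated over sham, of each tested gene in the 7 pathway lists (filled points, unadjusted p under 0.05; black bars, list medians; number of tested genes beside each name). List medians run from 0.09 to 0.29, and 1 filled point lies left of 0, Mx2.

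Over the 7 lists together 94 tested genes were not members. Of these, 14 (14.9%) were higher and 1 (1.06%) lower at an unadjusted p under 0.05, beside 6.7% and 3.16% of all rows, and 0 passed after adjustment. Their median log2 fold change was 0.12, and 3 of them had groups that did not overlap (Tapbpl, Nfya and Gbp2), beside 1.29% of all rows. All 94 carry a symbol, as 57.7% of tested rows did, so all rows are an unlike background. With rows of a symbol summed, 14.9% of the 94 were higher at that threshold, beside 8.41% of rows with a symbol. When 1 rat was left out the count of 14 ranged from 8 to 17. It was 8 without sham rat 1, sham rat 4 or stimulated rat 7, beside 5.68%, 5.15% and 4.74% of all rows higher in those fits, 9 without stimulated rat 9 (5.95%), and 17 without stimulated rat 6 (8.27%). The RT1 rows among them can share reads, so they do not count as separate measurements.

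Markers of cell types that carry MHC molecules varied with some of these values, and their part in them was not tested. Of 12 tested microglial markers 2 were higher without adjustment, the complement genes C1qa and C1qb, at log2 fold changes of 0.39 ± 0.168 and 0.51 ± 0.189, while P2ry12 and Tmem119, which define resident microglia, were at -0.25 ± 0.164 and 0.18 ± 0.145. The summed level of the list was 489 to 589 CPM in sham and 520, 771, 543, 715 and 615 CPM in rats 6 to 10, highest in rats 7 and 9 as Cd74 was. Of 10 endothelial markers 5 were higher, led by Pecam1 at 0.81 ± 0.185, and the list summed to 200 to 217 CPM in sham and 195 to 401 CPM in stimulated rats, highest in rat 10. Of 8 astrocyte markers 4 were higher, and Gfap averaged 1593 ± 222 in sham and 3329 ± 2425 CPM after stimulation (SD, n = 5 each). The list summed to 3514 to 3995 CPM in sham and 3579 to 8853 CPM in stimulated rats, and without Gfap, a sum added after seeing the data, to 2019 to 2385 and 2253 to 2719 CPM. Macrophages at vessels, with 5 markers, summed to 7.84 to 12.3 and 7.12 to 13.0 CPM, with 0 markers called.

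Of 9 T cell markers Cd3e, Cd3d, Cd3g and Cd8b were at 0 in 8 of 10 libraries each and Cd8a in 7. Of the 3 that could be tested, Cd4, which rat microglia and macrophages also carry, and Cd247 were higher without adjustment, at log2 fold changes of 0.76 ± 0.323 and 0.63 ± 0.214, and the list summed to 7.96 to 13.8 CPM in sham and 9.77 to 23.1 CPM in stimulated rats. The B cell marker Cd79b was at 0 in 7 libraries and below the filter. Of the dendritic cell markers Cd209a was at 0 in all libraries, Xcr1 in 5, and 0 of 2 tested were called. Among neurons (7 tested), granule cells (4), oligodendrocytes (7), choroid plexus (6) and blood (6) 0 markers had an unadjusted p under 0.05, and of 5 CA3 markers 1 did, Chgb, at 0.45 ± 0.16.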

How the data were processed

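Poly(A) RNA of 10 rats was read in single reads of 36 cycles. Reads were mapped with BWA to RN4 by the authors, who deposited raw counts, whole numbers per transcript and rat without normalization. Their methods name an Ensembl annotation, whereas the rows carry RefSeq identifiers. The use of strand and of reads shared by copies was not given in the sources used here. Groups came from the treatment label, rats being numbered 1 to 5 (sham) and 6 to 10 (stimulated). The study's methods give 1 stimulated rat fewer than the labels, so all 10 were used. The labels give no batch.

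Unaligned reads were left aside. Rows summing to less than the 30th percentile (46 counts) were not tested. The comparison used edgeR 4.0.16 (R 4.3.3), its quasi-likelihood test with trimmed mean (TMM) factors and Benjamini-Hochberg adjustment over 22447 rows, after the code was tested on simulated data. CPM used the same factors, and log2 CPM a prior count of 2. Rats were caged singly from surgery on, and shared litters are not stated. P-values weigh the difference between the groups against the spread between these rats. Ratios of subunits added 0.5 counts and were compared with exact permutation tests (scipy 1.17.1). Symbols came from the RefSeq table of GRCr8 by identifier (57.7% of tested rows had a symbol). Alternatives were other scalings (RLE, upper quartile, library size), filters, tests (DESeq2 1.42.0, limma 3.58.1, the likelihood ratio and exact tests), the summing of rows of a symbol and the omission of ribosomal records or of each rat.

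Named genes are the 10 members, in each of 7 pathway lists the genes with an unadjusted p under 0.05 and the 2 with the highest mean CPM, and for Cd74 and B2m the 5 most correlated rows. 13 lists of cell markers are given as counts and sums. Irf1, RT1-DMa, RT1-DMb, Ciita, Nlrc5, RT1-Ha, Psmb10, Ifit1, Cxcl9, RT1-N2, RT1-CE16, Fos and single markers were named outside this rule. Some genes of the lists are not reported here by name. The members, lists and motifs were chosen with earlier results of these data known.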

Additional observations from a re-analysis of the deposited data

Results flagged for a closer look

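Among 26 groups of 5 rats checked for a value standing apart, 1 was found where chance gives about 1.3: Cd74 in sham rats. Sham rat 3 stood at 25.5 CPM, and its gap to the next sham rat (16.1 CPM) was 0.742 of the whole range of the group, above Dixon's 95% critical value of 0.71 for 5 samples. Without this rat the log2 fold change of Cd74 was 1.05 in place of 0.84, with an unadjusted p of 0.0243.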

How the results depend on the processing

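No paired analysis was possible because the labels number the rats from 1 to 10 without any number shared between groups. The count of members with an unadjusted p under 0.05 was 3 and ranged from 1 to 5 when each rat was left out in turn: it was 1 (B2m) without sham rat 2, 4 or 5 or stimulated rat 7 or 9, and 5 without stimulated rat 6, when Tap1 and Psmb8 joined B2m, Psmb9 and Cd74. The share of all rows moved too, from 9.86% to between 7.37 and 8.81% in the fits with 1 and to 14.0% in that with 5. Limma-voom gave 1 (B2m, 9.06% of rows), and DESeq2, robust empirical Bayes and upper quartile factors gave 2 (B2m and Psmb9). Fewer rats enter each fit that left out a rat, whereas the other settings used all 10 rats, and the cause of the differences was not tested. The count of members with an adjusted p under 0.05 was 0 in each of the settings run. The log2 fold change of Tapbp ranged from -0.18 to 0.045 when each rat was left out, and was above 0 without sham rat 2 (0.041) and without stimulated rat 9 (0.045), and 9 members kept their direction in each setting. The 3 subunit ratios kept their direction. When each rat was left out, the difference in log2 ratio was 0.34 to 0.67 for Psmb8 to Psmb5. It was 0.33 to 0.52 for Psmb9 to Psmb6 and -0.30 to -0.09 for Psmb10 to Psmb7. The exact permutation p of the ratios, adjusted over 3 ratios, stayed above 0.05 in each setting, the lowest being 0.0714. Their unadjusted exact permutation p fell to 0.0317 (Psmb8 to Psmb5) and 0.0476 (Psmb9 to Psmb6) without stimulated rat 6, and to 0.0476 for Psmb9 to Psmb6 without sham rat 3. The count of pathway genes outside the members, 14, was 10 to 15 under the other scalings, filters and tests, a check chosen after seeing the data. A count of 15, the lowest of RT1-Bb, limits what this gene can show.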

Other observations

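Other RT1 rows differed between single rats irrespective of group. RT1-N2 stood at 0.524, 3.74, 0.272, 0.289 and 3.81 CPM in sham rats 1 to 5 and at 1.99, 2.41, 3.58, 2.45 and 0.31 CPM in stimulated rats 6 to 10, with 5 to 9 counts in rats 1, 3, 4 and 10 and 44 to 91 in the others. RT1-CE16 stood at 32.2, 16.0, 34.0, 30.4 and 16.1 CPM in sham and 15.6, 23.6, 19.9, 20.9 and 46.8 CPM in stimulated rats. The 4 rats with the lowest RT1-N2 were thus the 4 with the highest RT1-CE16, 3 of them sham and 1 stimulated. These rows were chosen after their values were seen, and differences in RT1 sequence between outbred rats were not tested.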
